A study of Mus musculus with 8 samples.

Results

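H3K4me3 and H3K27me3, 2 histone marks with opposite roles at promoters, were compared within isografts of a mouse lung tumor. The comparison rests on 4 of the 8 ChIP-seq libraries of the study, which are the H3K4me3 libraries of LLC-NR and LLC-R and the H3K27me3 libraries of LLC-NR and LLC-R. The members were chosen by the labelled antibody and line, so that each mark has 2 libraries, 1 from each line. LLC is the Lewis lung carcinoma cell line of C57BL/6 mice. LLC-NR isografts are sensitive to VEGF-Trap, a decoy receptor that binds VEGF, and LLC-R isografts came from cells selected for resistance to it in mice. Both lines grew in young adult female C57BL/6J mice, and all 4 libraries share this host, the micrococcal nuclease digestion of nuclei from tissue homogenate, and the sequencing platform. The tissue therefore held tumor cells together with vessels, stroma and leukocytes of the host. Each line stands for 1 selected population, and nothing in the labels says whether tumors were pooled. With the lines as the 2 libraries of a mark, the spread within a mark is the spread between the lines, and it may be technical in part.

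H3K4me3 is laid down by SET1 and MLL complexes around the transcription start sites (TSSs) of active and poised genes, above all where the DNA is rich in CpG. H3K27me3 is the product of Polycomb repressive complex 2 and is known for marking silent developmental regulators such as the Hox genes. Promoters that carry both marks are called bivalent and were first described at developmental genes of stem cells.

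Each library lists peaks of 147 bp, the length of nucleosomal DNA, with no height. On chromosomes 1 to 19, which were used here, the H3K4me3 libraries held 5418394 (LLC-NR) and 5398636 (LLC-R) peaks, and the H3K27me3 libraries held 6889867 and 8629352. The H3K27me3 peaks alone covered 42.2% of the bases of a regular sample of background windows in LLC-NR and 52.7% in LLC-R, so a peak is a position where a nucleosome was seen and not a region of enrichment. The level of a mark at a promoter was therefore the number of peaks whose midpoint fell between -1 kb and +0.5 kb of the TSS, which reached 9 at most, divided by the total of the library and given per 1000000 peaks (PPM). Since peaks of a library do not overlap, this level saturates and understates large differences. The log2 ratio of H3K4me3 over H3K27me3 was taken within each line after 0.2 PPM had been added to both. Where values of the lines are paired, LLC-NR comes first and LLC-R second. Equal numbers of peaks give a log2 ratio above 0, because the H3K4me3 libraries held fewer peaks in total. Promoters that both marks fill to the same number therefore score toward H3K4me3. Ptk2 and Dennd3, with 7 peaks in each of the 4 libraries, had log2 ratios of 0.30 and 0.57. How far this ceiling shaped the ratios and calls below was not tested.

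Peaks at 6 promoters show which DNA carried the marks. They were taken by fixed rules from the promoters named below, wholly upstream of the TSS and outside annotated exons, and are printed 5′ to 3′ on the strand of the gene, in mm9 coordinates, with CpG dinucleotides in capitals. The first 2 nucleosomes carried H3K4me3 in both lines and had no H3K27me3 midpoint within 73 bp in either line. The peak of Vkorc1l1 (chr5:130417720-130417866, plus strand) had its midpoint 186 bp from the TSS, a G+C content of 75.5% and 20 CpGs, and that of Rnf170 (chr8:27228861-27229007, plus strand) lay 918 bp away with 46.9% and 2 CpGs.
Vkorc1l1: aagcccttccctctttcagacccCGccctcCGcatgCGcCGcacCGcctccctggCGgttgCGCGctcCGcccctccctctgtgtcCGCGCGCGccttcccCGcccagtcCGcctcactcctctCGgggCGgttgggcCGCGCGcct
Rnf170: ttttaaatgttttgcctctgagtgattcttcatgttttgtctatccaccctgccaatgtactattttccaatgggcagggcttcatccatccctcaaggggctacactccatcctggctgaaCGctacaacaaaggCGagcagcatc

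A pair of nucleosomes carried H3K27me3 in both lines with no H3K4me3 midpoint within 73 bp. The peak of Cd163l1 (chr7:147403558-147403704, plus strand) had its midpoint 535 bp from the TSS, a G+C content of 42.2% and 4 CpGs, and that of Klk1b27 (chr7:51307413-51307559, plus strand) lay 174 bp away with 57.1% and 1 CpG.
Cd163l1: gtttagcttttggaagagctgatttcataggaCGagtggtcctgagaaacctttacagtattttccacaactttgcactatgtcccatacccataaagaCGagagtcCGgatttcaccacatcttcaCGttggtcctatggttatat
Klk1b27: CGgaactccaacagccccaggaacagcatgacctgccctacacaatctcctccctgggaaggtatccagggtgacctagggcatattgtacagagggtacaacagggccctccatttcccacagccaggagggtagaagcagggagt

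At the last pair of positions, peaks of both marks lay close together in both lines. At Ggcx (chr6:72364002-72364148, plus strand, 227 bp from the TSS) the midpoints of the other 3 libraries lay 4 bp from that of H3K4me3 in LLC-NR. At Dennd3 (chr15:73342157-73342303, plus strand, 760 bp from the TSS) both H3K27me3 midpoints lay at 0 bp from it and the H3K4me3 midpoint of LLC-R at 3 bp. These sequences held 4 CpGs at a G+C content of 46.3% and 1 CpG at 58.5%.
Ggcx: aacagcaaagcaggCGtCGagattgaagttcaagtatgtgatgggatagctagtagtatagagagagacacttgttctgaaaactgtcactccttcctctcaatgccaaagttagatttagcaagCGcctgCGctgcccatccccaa
Dennd3: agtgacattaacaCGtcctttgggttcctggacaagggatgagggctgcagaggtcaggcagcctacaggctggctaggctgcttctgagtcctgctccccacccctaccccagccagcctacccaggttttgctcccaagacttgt

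The 6 nucleosomes illustrate positions and do not stand for all peaks. Over all peaks, the G+C content was 43.6% and 44.3% for H3K4me3 and 43.8% and 43.4% for H3K27me3, so the order of the marks was opposite in the 2 lines. Within CpG-rich promoters, a peak held 8.61 and 8.77 CpGs on average for H3K4me3 and 8.50 and 8.08 for H3K27me3.

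Promoters took a larger share of the H3K4me3 peaks than of the H3K27me3 peaks in both lines. Of the H3K4me3 peaks, 1.86% and 1.75% lay in promoters, against 1.37% and 1.31% of the H3K27me3 peaks, while promoters make up 1.28% of the bases. The ratio of the shares was 1.36 and 1.34 in LLC-NR and LLC-R. The means of 1.81% ± 0.0754 and 1.34% ± 0.0443 (SD, n = 2 libraries each) did not overlap, and the exact permutation p (two-sided) was 0.333, the smallest that 2 against 2 libraries allow. Other exons held more H3K4me3 as well, by 1.21 times in LLC-NR and 1.15 times in LLC-R, whereas sequence outside genes held less, at 0.950 and 0.967 times.

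The difference between the marks followed the CpG class of the promoter. Of 21418 protein-coding promoters, 11705 were CpG-rich (HCPs), 3649 intermediate (ICPs) and 6064 CpG-poor (LCPs). HCPs held 6.08 ± 1.34 and 5.63 ± 1.29 H3K4me3 peaks (mean ± SD over promoters) and 4.68 ± 1.62 and 5.59 ± 1.36 H3K27me3 peaks, which makes the scaled H3K4me3 level 1.65 and 1.61 times that of H3K27me3. ICPs had ratios of 1.12 and 1.13. LCPs had 3.32 and 3.22 H3K4me3 peaks and 4.34 and 5.23 H3K27me3 peaks, with ratios of 0.975 and 0.986, close to the 0.967 and 0.975 of 1302382 background windows far from any TSS. H3K4me3 levels therefore stood in the order HCP, ICP and LCP in both lines, while the scaled H3K27me3 level of the classes stayed between 0.606 and 0.687 PPM.

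Base composition moved with these ratios. At a G+C content of 50% to 55%, promoters had a log2 ratio of 0.55 and 0.52 in LLC-NR and LLC-R, and background windows of the same composition had -0.18 and -0.0023. Windows away from any TSS that met the G+C and CpG limits of HCPs over their whole length, 518 in number, had ratios of 1.32 and 1.41, and 5818 windows rich in G+C but poor in CpG had 0.948 and 1.05. High ratios in both lines were thus found where CpG was dense, inside and outside annotated promoters, but with different levels. The 518 windows had 0.669 and 0.649 PPM of H3K4me3, against 0.605 and 0.608 in all background windows. Their H3K27me3 was low, at 0.508 and 0.460 PPM against 0.626 and 0.624. HCPs instead had high H3K4me3, at 1.12 and 1.04 PPM, with 0.679 and 0.648 of H3K27me3. The trend on G+C content was then removed from each library in a way that restores the library's median over promoters. The median log2 ratio of all promoters, 0.35 for the mean of the lines against 0.33 before, is therefore no test of base composition.

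Around the TSSs of HCPs the marks had the same arrangement of nucleosomes and different heights. Near the TSS both were lowest between 12 bp and 37 bp downstream of the TSS and highest at 137 bp, the position of the first nucleosome of the gene body. There the H3K4me3 density was 1.45 and 1.29 PPM per kb, and the H3K27me3 density was 0.769 and 0.576. The largest ratio was 2.10 at 312 bp in LLC-NR and 2.24 at 137 bp in LLC-R, against 1.54 and 1.35 in the flanks. In LCPs the curves of the 4 libraries ran together, and the largest ratio of any bin was 1.13 and 1.19 in LLC-NR and LLC-R.

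**Figure D1:**
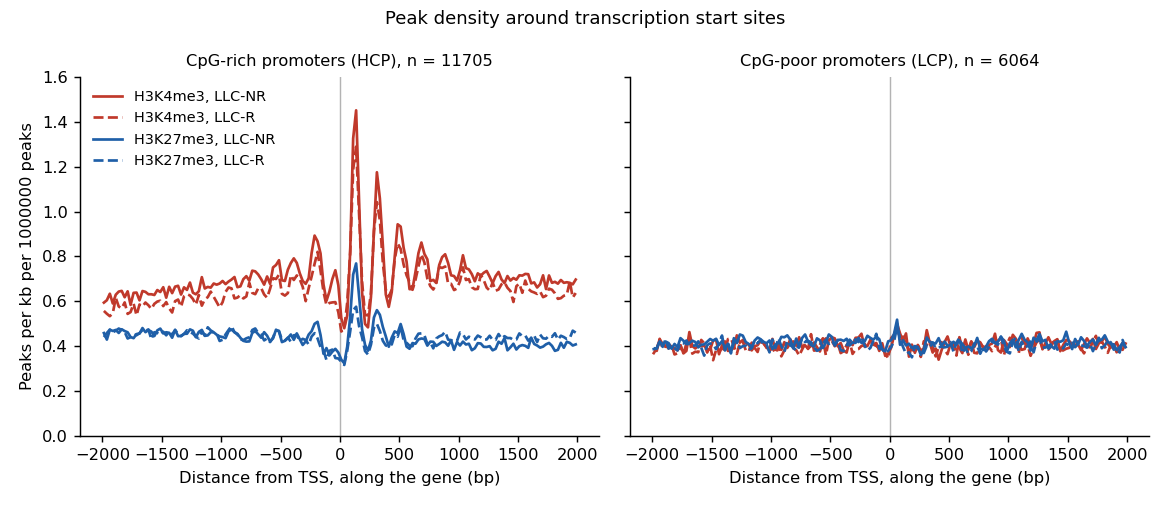
Density of peak midpoints (peaks per kb per 1000000 peaks of the library, 25-bp bins) against the distance from the TSS in bp, for 11705 HCPs (left) and 6064 LCPs (right); red lines are H3K4me3, blue lines H3K27me3, solid lines LLC-NR and dashed lines LLC-R. H3K4me3 stands above H3K27me3 at every distance in HCPs, with maxima of 1.45 and 1.29 at 137 bp, and the curves coincide in LCPs.

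Promoters that were rich in a mark relative to the other by at least 2-fold (log2 ratio of 1) in each line were picked next. H3K4me3-rich promoters numbered 452 (2.11% of all), and H3K27me3-rich promoters 43 (0.201%). These counts and their order depend on the scaling and the added constant, since they were 68 and 151 when the ratios were centred on the median promoter and 60 and 1 with 0.5 PPM added. LLC-NR alone would give 2939 and 478, and LLC-R alone 1034 and 442. No promoter was 2-fold to H3K27me3 in LLC-NR and 2-fold to H3K4me3 in LLC-R, and 9 were the other way round. The ratios of the 21418 promoters in the 2 lines correlated with a Spearman coefficient of 0.591, which was 0.459 within HCPs and 0.237 within LCPs, with promoters of 1 library pair sharing depth and base composition. The median log2 ratio was 0.29 and 0.33 in LLC-NR and LLC-R. Promoters just inside the limit had log2 ratios of 1.01 and -1.02 in the weaker line, and those just outside 0.98 and -0.98.

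**Figure D2:**
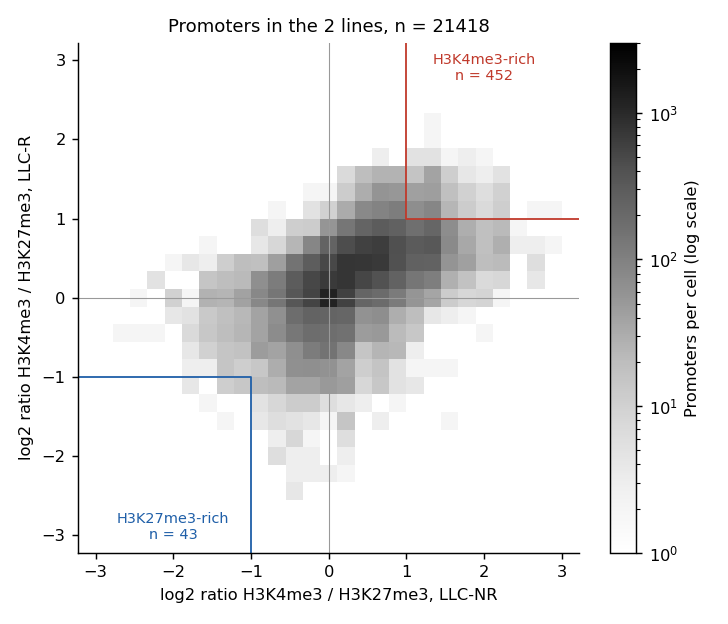
log2 ratio of H3K4me3 over H3K27me3 in LLC-NR (x axis) and LLC-R (y axis) for 21418 promoters, with the number of promoters per cell in grey on a log scale. The lines mark a 2-fold difference in both lines, with 452 promoters beyond it on the H3K4me3 side and 43 on the H3K27me3 side.

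H3K4me3-rich promoters were mostly CpG-rich, with 414 HCPs, 26 ICPs and 12 LCPs, a median G+C content of 55.3% and a median CpG observed over expected ratio of 0.710. By the choice they held many H3K4me3 and few H3K27me3 peaks, with means of 6.65 and 6.34 against 2.41 and 3.20. Among the marks the choice did not use, H3K9ac, an acetylation of active promoters, had 6.18 and 5.42 peaks, against 5.88 and 5.26 in HCPs. H3K36me3, the mark of transcribed gene bodies, had 3.30 and 4.06 peaks per kb (counted between +0.5 kb and +3 kb), against 3.10 and 3.97 in HCPs.

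For the 10 named H3K4me3-rich promoters, peak numbers are given in the order LLC-NR, LLC-R. Snrpa, which encodes a protein of the U1 splicing particle (TSS at chr7:27981264, minus strand), held 6 and 5 H3K4me3 peaks and 1 and 1 H3K27me3 peaks. U2af2, a splicing factor that binds the 3′ splice site (chr7:5013745, plus strand), held 5 and 5 against 1 and 1. Vkorc1l1, a vitamin K epoxide reductase (chr5:130417979, plus strand), held 6 and 7 against 1 and 2, and Mrpl55, a protein of the mitochondrial ribosome (chr11:59015988, plus strand), 8 and 7 against 2 and 2.

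Dido1, whose PHD finger binds H3K4me3 (chr2:180437055, minus strand), and Ino80e, a subunit of a nucleosome remodeler (chr7:134005891, minus strand), both held 7 and 7 H3K4me3 peaks against 2 and 2 of H3K27me3. The histone gene Hist1h2af held 5 and 6 against 1 and 1. Fv1, a restriction gene against retroviruses, held 8 and 7 against 2 and 2, Rnf170, a ubiquitin ligase, 8 and 8 against 1 and 3, and Rsph3a, a protein of ciliary radial spokes, 5 and 4 against 1 and 0. The choice of these 10 fixes that the marks differ at them. With limma, on the same libraries, 9 of them passed at an adjusted p of 0.0474, with log2 differences from 1.70 for Dido1 and Ino80e (SE 0.189) to 1.95 for Rnf170 (SE 0.282), and Rsph3a had 0.0516.

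H3K27me3-rich promoters were mostly CpG-poor, with 1 HCP, 9 ICPs and 33 LCPs, a median G+C content of 45.1% and a CpG observed over expected ratio of 0.128. By the choice they held few H3K4me3 peaks, 0.721 and 0.605 on average. Their H3K27me3 peaks, 4.33 and 4.63, were no more than the 4.59 and 5.49 of all promoters or the 4.34 and 5.23 of LCPs. The name H3K27me3-rich thus refers to the ratio alone and not to a high level of H3K27me3. H3K9ac, which the choice did not use, had 3.88 and 3.35 peaks against 4.99 and 4.54 in LCPs, and H3K36me3 downstream was 1.75 and 2.85 per kb against 2.29 and 3.25.

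The single HCP, chosen after its values had been seen, was Edar, a receptor of skin appendages, with 7 and 5 H3K27me3 peaks against 2 and 1.

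Among the 10 named H3K27me3-rich promoters, Cd163l1, a scavenger receptor (chr7:147404166, plus strand), held 8 and 8 H3K27me3 peaks and 1 and 0 H3K4me3 peaks. Klk1b5 and Klk1b27, kallikrein proteases of a gene cluster on chromosome 7, held 7 and 4 and then 4 and 4 H3K27me3 peaks, with 0 H3K4me3 peaks in both lines. Defb15, a beta-defensin (chr8:23043182, minus strand), held 6 and 7 against 1 and 1. Dhrs2, a dehydrogenase, held 7 and 6 against 2 and 0, Cacna1c, the pore subunit of an L-type calcium channel, 7 and 6 against 2 and 1, and Cyp2e1, a cytochrome P450 of liver, 4 and 6 against 1 and 1.

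The remaining named promoters had fewer peaks. C1s, a complement protease, held 4 and 3 H3K27me3 peaks against 1 and 0, the olfactory receptor gene Olfr1380 held 5 and 2 against 1 and 0, and the pseudogene Olfr1025-ps1 5 and 6 against 1 and 1. With limma, only Klk1b27 and Defb15 of the 10 passed, at an adjusted p of 0.0474 and log2 differences of -1.85 (SE 0.305) and -1.43 (SE 0.241). With so few peaks these ratios depend on the added 0.2 PPM. Klk1b and Olfr genes have close copies, and reads that mapped to more than 1 place had been left out by the authors, so their numbers of peaks are uncertain.

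**Figure D3:**
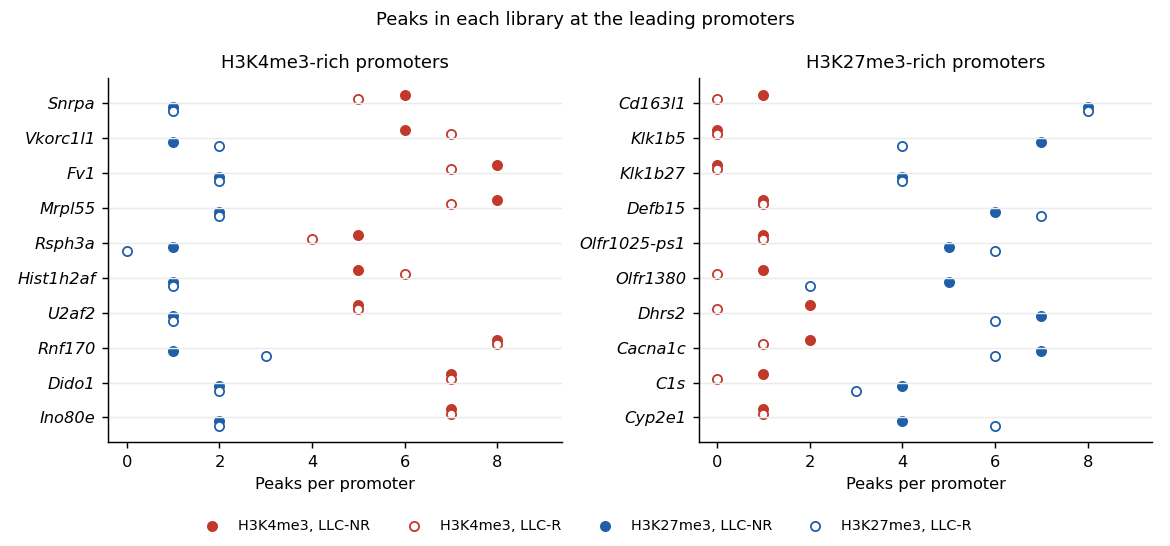
Number of peaks per promoter (x axis) in each of the 4 libraries at the 10 named H3K4me3-rich promoters (left) and the 10 named H3K27me3-rich promoters (right); filled circles are LLC-NR, open circles LLC-R, red H3K4me3 and blue H3K27me3. H3K4me3 numbers run from 4 to 8 on the left and from 0 to 2 on the right.

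Across promoters, limma on the log2 levels of the 2 H3K4me3 and 2 H3K27me3 libraries called 1853 of 20562 promoters with at least 4 peaks (9.01%) higher in H3K4me3 and 3 (0.0146%) higher in H3K27me3, at a Benjamini-Hochberg adjusted p below 0.05. Of the calls toward H3K4me3, 1727 were HCPs, 92 ICPs and 34 LCPs, and 334 belonged to the 452 H3K4me3-rich promoters. The smallest adjusted p was 0.0474, so all calls lay close to the threshold. Near the ceiling of peak numbers the scaling leans toward H3K4me3. Arnt, with 8 and 8 H3K4me3 peaks against 6 and 7 of H3K27me3, was among the calls. How much of the 1853 against 3 came from this was not tested. With the line as a replicate block, limma called 7036 (34.2%) and 82 (0.399%). Centred on the median promoter, limma called 0 in either direction, and the numbers at an unadjusted p below 0.05 went from 8134 and 401 to 3477 and 1460, where the median promoter moved from 0.33 toward H3K4me3 to 0.022. With the G+C trend removed, limma also called 0 in either direction, with 6903 and 250 at an unadjusted p below 0.05. Beside Klk1b27 and Defb15, the third call toward H3K27me3 was the gene model BC049730, with 6 and 7 peaks against 1 and 1. Without the LLC-NR or the LLC-R library of H3K4me3, limma called 0 promoters in either direction (3813 and 777, and 5002 and 745, at an unadjusted p below 0.05), and the calls of single genes given here share this limit. Without the LLC-NR or the LLC-R library of H3K27me3, limma called 2589 and 1948 promoters higher in H3K4me3 and 21 and 18 higher in H3K27me3.

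Gene lists were described by their median log2 ratio, beside that of all promoters (0.29 and 0.33 in LLC-NR and LLC-R) and of HCPs (0.52 and 0.55). For comparison, a promoter with 7 peaks in each of the 4 libraries had 0.30 and 0.57. Ribosomal protein, proteasome, glycolysis, replication and histone genes and the enzymes of the marks lay at or above the HCPs in both lines. Developmental regulators lay below the HCPs although most of them are HCPs, and sensory receptor and keratin genes lay at or below 0. The other lists lay between -0.19 and 0.62. By limma, 9.01% of all promoters and 14.9% of the fitted HCPs passed toward H3K4me3, and the count of each list is read against these shares. Where a count of 5 or fewer genes is spelled out, the names were picked after their values had been seen.

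Genes of cytosolic ribosomal proteins had the highest median of the lists in LLC-R and the next after histone genes in LLC-NR. Their 74 promoters, of which 72 are HCPs, had medians of 1.04 and 0.76 in LLC-NR and LLC-R. Of them 72 were above 0 in both lines, 17 (23.0%) were H3K4me3-rich, against 3.54% of HCPs, and 0 were H3K27me3-rich. They held 6.38 and 5.74 H3K4me3 peaks, near the HCP means, and only 3.27 and 4.47 H3K27me3 peaks. With limma 21 (28.4%) passed toward H3K4me3, and 62 (83.8%) with the block, against 9.01% and 34.2% of all promoters. Rps9 and Rps26, proteins of the small subunit, held 6 and 6 H3K4me3 peaks against 0 and 3 and 7 and 7 against 3 and 1. At the low end of the list, Rps23 held 6 and 5 against 6 and 7, and Rpl38 4 and 3 against 6 and 3. Downstream H3K36me3 of this list was 3.89 and 4.31 peaks per kb, against 2.79 and 3.70 over all promoters and 3.10 and 3.97 in HCPs.

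Proteasome subunit genes had medians of 0.90 and 0.57 over 40 promoters, with 10 (25%) passing toward H3K4me3, against 9.01% of all promoters and 14.9% of HCPs. Psmb3, a subunit of the core particle, held 7 and 6 H3K4me3 peaks against 1 and 3, and Psmc5, an ATPase of the regulatory particle, 7 and 6 against 1 and 5. Psma6 held 2 and 2 against 4 and 6 and Psma8, a subunit used in testis, 4 and 4 against 5 and 7. Glycolysis genes had medians of 0.93 and 0.75 over 18 promoters, with 6 (33.3%) passing, against 9.01% of all promoters. Eno1, the widely expressed enolase, held 8 and 6 against 2 and 3 and passed limma (adjusted p = 0.0474), and so did Pkm2, the pyruvate kinase of growing cells, with 7 and 6 against 2 and 4, and Slc2a1, the glucose transporter GLUT1, with 7 and 7 against 5 and 6 (both at 0.0474). Aldoa, an aldolase, held 6 and 5 against 0 and 4. Eno2, the enolase of neurons, held 4 and 6 against 7 and 7, and Hk1, a hexokinase, 2 and 6 against 6 and 7.

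DNA replication and mitosis genes had medians of 0.86 and 0.75 over 29 promoters, all of them HCPs, with 7 (24.1%) passing, against 14.9% of HCPs. Mcm2, a subunit of the replicative helicase, held 5 and 5 H3K4me3 peaks against 1 and 2 and passed (adjusted p = 0.0474), as did Rrm2 with 8 and 7 against 5 and 5, while Mcm3, its partner in the helicase, held 5 and 4 against 5 and 7. Rrm1, a subunit of ribonucleotide reductase, held 6 and 3 against 2 and 2, and Bub1b, a kinase of the spindle checkpoint, 5 and 5 against 7 and 6.

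The enzymes of the 2 marks were described as a list of their own. Their 22 promoters had medians of 0.75 in both lines, 21 were above 0 in both, and 5 (22.7%) passed toward H3K4me3, against 9.01% of all promoters and 14.9% of HCPs. Among the 5, the H3K4 methyltransferase gene Mll1 held 7 and 7 H3K4me3 peaks against 3 and 3, Mll3 8 and 7 against 4 and 4, Mll2 7 and 7 against 5 and 5, and Rbbp5, a shared subunit, 7 and 6 against 4 and 5 (adjusted p = 0.0474 each). Setd1a held 7 and 7 against 4 and 3 (adjusted p = 0.049). Kdm5a, a demethylase of H3K4, held 7 and 6 against 4 and 2. Its relative Kdm5b held 6 and 5 against 7 and 6, and Ash2l, a core subunit of the methyltransferase complexes, 6 and 4 against 6 and 6.

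Replication-dependent histone genes had the highest median in LLC-NR, 1.41, but 0.55 in LLC-R. The 67 promoters held few peaks of either mark, with 4.84 and 3.97 of H3K4me3 and 2.09 and 3.49 of H3K27me3. Of them 10 were H3K4me3-rich, and 7 of the 61 fitted (11.5%) passed, close to the 9.01% of all promoters and below the 14.9% of HCPs, to which 65 of the 67 belong. Hist1h4k held 8 and 5 H3K4me3 peaks against 0 and 3, whereas Hist1h2ba, a variant of testis, held 3 and 5 against 7 and 7 and Hist1h2al 3 and 3 against 6 and 6. Many histone genes are close copies of each other, so the numbers are uncertain in the way given for Klk1b genes. Numbered zinc finger genes, many of them repressors with KRAB domains, had medians of 0.62 and 0.53 over 337 promoters. Of these 13 (3.86%) were H3K4me3-rich, against 2.11% of all promoters and 3.54% of HCPs, and 42 of 329 fitted (12.8%) passed, between the shares of all promoters and HCPs. Zfp36, which in spite of its name is an RNA-binding protein, held 8 and 6 against 0 and 2, and Zfp384 6 and 8 against 2 and 2. Zfp616 held 3 and 1 against 5 and 6 and Zfp534 0 and 0 against 1 and 1.

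Hox genes, the classical Polycomb targets, held peaks of both marks, with more H3K27me3 and less H3K4me3 than HCPs as a whole. Their 40 promoters, 28 of them HCPs, held 5.58 ± 1.41 and 5.38 ± 1.10 H3K4me3 peaks (mean ± SD over promoters). The HCP means were 6.08 and 5.63. They held 6.38 ± 0.979 and 6.45 ± 0.815 H3K27me3 peaks, above the HCP means of 4.68 and 5.59. The medians of the log2 ratio were 0.10 and 0.33. No promoter was rich in either mark and 0 passed limma (7 with the block), with 7 toward H3K4me3 and 0 toward H3K27me3 at an unadjusted p below 0.05. Hoxa6 held 7 and 6 H3K4me3 peaks against 5 and 6, and Hoxa4 6 and 7 against 6 and 5. Hoxb13 held 4 and 5 against 8 and 8, and Hoxd4 2 and 4 against 7 and 6. The log2 ratios of the scaled levels were -0.54 and -0.0012 for Hoxb13 and -1.10 and 0.072 for Hoxd4. Both genes held more H3K27me3 than H3K4me3 peaks in both lines, and their ratios lay below the medians of all promoters, 0.29 and 0.33.

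Developmental transcription factors outside the Hox clusters also held more H3K27me3 peaks than HCPs as a whole. Over 124 promoters, of which 108 are HCPs, the H3K4me3 means were 5.39 and 5.17 and the H3K27me3 means 6.10 and 6.65, with medians of 0.10 and 0.25 for the log2 ratio. Again no promoter was rich in either mark, and 0 passed limma (16 with the block), with 23 and 0 at an unadjusted p below 0.05. Otx1, a head and brain regulator, held 6 and 7 against 5 and 5, and Atoh1, a regulator of neurons and secretory cells, 7 and 7 against 6 and 5. Pax8, a thyroid and kidney regulator, held 3 and 2 against 6 and 6, and Tbx5, a heart and limb regulator, 2 and 4 against 8 and 7. Downstream H3K36me3 was 2.50 and 3.72 peaks per kb in this list, below the 3.10 and 3.97 of HCPs.

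Angiogenesis ligands, receptors and hypoxia factors, a list that includes genes of VEGF and its receptors among others, lay at the level of all promoters. The 38 promoters had medians of 0.29 and 0.33, with 5.42 and 5.24 H3K4me3 peaks and 5.66 and 6.42 H3K27me3 peaks, and 1 passed limma. This was Arnt, the partner of hypoxia-inducible factors, with 8 and 8 against 6 and 7 (adjusted p = 0.0474). Egln1 and Vhl, which target hypoxia-inducible factors for destruction, held 6 and 7 against 3 and 6 and 6 and 6 against 3 and 7. Tie1, a receptor of endothelium, held 4 and 2 against 7 and 7, and Fgfr2, a receptor for fibroblast growth factors, 0 and 2 against 3 and 6. The 5 genes that the study took to ChIP-qPCR were chosen by it on these samples and are no independent evidence. Among them Smad3, a transducer of TGF-beta signals, held 6 and 6 against 4 and 5 and passed (adjusted p = 0.0474, log2 difference 0.75, SE 0.129). Mapk9, a stress kinase, held 7 and 5 against 4 and 7, Nfkb1, a subunit of NF-kappaB, 5 and 4 against 4 and 4, Ptk2, the focal adhesion kinase, 7 and 7 against 7 and 7, and Mmp9, a matrix protease, 4 and 5 against 5 and 6.

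Marker genes of the cell types that an isograft can hold had medians from -0.19 to 0.33, at or below those of all promoters. HCPs were rarer among them than among all promoters (54.7%). They were 0 leukocyte, 3 endothelial, 7 fibroblast, 7 lung epithelium and 3 muscle and adipocyte promoters. For comparison, the medians of LCPs were 0 in both lines and those of ICPs 0.068 and 0.072. Leukocyte markers had 0.068 and -0.045 over 23 promoters, endothelial markers -0.15 and 0.33 over 14, fibroblast markers 0.10 and 0.24 over 16, lung epithelium markers 0.28 and 0.27 over 18, and muscle and adipocyte markers -0.19 and 0.072 over 16. In these 5 lists 0 promoters passed limma. With the block 2, 1, 2, 3 and 0 passed, all toward H3K4me3 (8.70%, 7.14%, 12.5%, 16.7% and 0%, against 34.2% of all promoters). At an unadjusted p below 0.05, 3, 3, 3, 5 and 1 leaned toward H3K4me3 and 2, 1, 0, 0 and 0 toward H3K27me3, and the single promoter rich in a mark was Erg, an endothelial transcription factor, with 1 and 1 H3K4me3 peaks against 5 and 5. Cd68, a lysosomal protein of macrophages, held 5 and 6 against 2 and 4, and Cd14, a receptor of monocytes, 7 and 6 against 4 and 6. Cd3e, a chain of the T cell receptor complex, held 2 and 1 against 6 and 6, and Emr1, the macrophage antigen F4/80, 3 and 3 against 6 and 7. Promoter peaks do not show how many cells of a type a tumor held, so a mark in few cells and a weak mark in all cannot be told apart.

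The endpoints of the other marker lists were as follows. Of the endothelial genes, Eng held 7 and 6 H3K4me3 peaks against 5 and 6, Pecam1 6 and 5 against 4 and 6, and Cldn5 4 and 2 against 5 and 7. Of the fibroblast genes, Vim held 6 and 5 against 1 and 5, S100a4 6 and 6 against 2 and 5, Fbln2 2 and 4 against 5 and 6, and Postn 4 and 1 against 7 and 6. Of the lung genes, Krt18 held 6 and 4 against 2 and 7, Abca3 8 and 6 against 6 and 6, Scgb1a1 4 and 4 against 5 and 6, and Krt5 4 and 2 against 5 and 7. Pparg, the regulator of adipocytes, held 6 and 5 against 5 and 6, Mylpf, a light chain of fast muscle myosin, 5 and 4 against 2 and 7, Myh2 4 and 4 against 7 and 8, and Plin1, the coat protein of fat droplets, 0 and 2 against 5 and 5. Vim and Krt18, which carcinoma cells can express themselves, had a higher ratio in LLC-NR than in LLC-R.

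Families that are known to be silent outside sensory tissue and skin were at the low end. Olfactory receptor genes had medians of -0.051 and -0.10 over 1081 promoters, with 0 H3K4me3-rich and 7 H3K27me3-rich promoters (0.648%, near the 0.544% of LCPs, and against 0.201% of all promoters; 1 of the 1081 is an HCP). Vomeronasal receptor genes had 0 and -0.045 over 319, with 1 H3K27me3-rich, Vmn2r84. Their H3K4me3 numbers of 3.16 and 3.10 and of 2.15 and 1.94 peaks were below the 4.97 and 4.67 of all promoters, and both are families of close copies. With limma, Olfr1052 with 6 and 7 against 4 and 5 passed toward H3K4me3 (adjusted p = 0.0474) and no other promoter of these families passed, with 18 and 4 toward H3K4me3 and 54 and 7 toward H3K27me3 at an unadjusted p below 0.05. Keratin and keratin-associated protein genes had medians of -0.30, the lowest of the lists in LLC-NR, and -0.10 over 97 promoters, of which 37 were below 0 in both lines and 11 above 0 in both. Only 6 of the 97 are HCPs, and the medians of LCPs were 0 in both lines. With limma 0 passed, with 2 toward H3K4me3 and 8 toward H3K27me3 at an unadjusted p below 0.05. Their H3K27me3 numbers of 4.97 and 5.91 were above those of all promoters, and their H3K4me3 numbers of 3.23 and 3.34 were below. Krt84, a hair keratin, held 1 and 3 against 7 and 8, Krtap13, a protein of the hair shaft, 0 and 4 against 5 and 5, and Krt80 7 and 6 against 5 and 6.

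Single receptor genes ranged widely. Olfr324 held 3 and 0 H3K4me3 peaks against 8 and 6 of H3K27me3, and Olfr288 0 and 3 against 8 and 7. Olfr1082 held 2 and 3 against 0 and 2, and Olfr56 1 and 1 against 0 and 0. Vmn1r9 held 1 and 0 against 3 and 3, Vmn1r26 0 and 3 against 3 and 8, Vmn2r51 2 and 3 against 1 and 1, and Vmn1r167 2 and 3 against 0 and 3. With numbers this small, a difference of 1 peak moves the ratio of a promoter by a large part of its size.

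**Figure D4:**
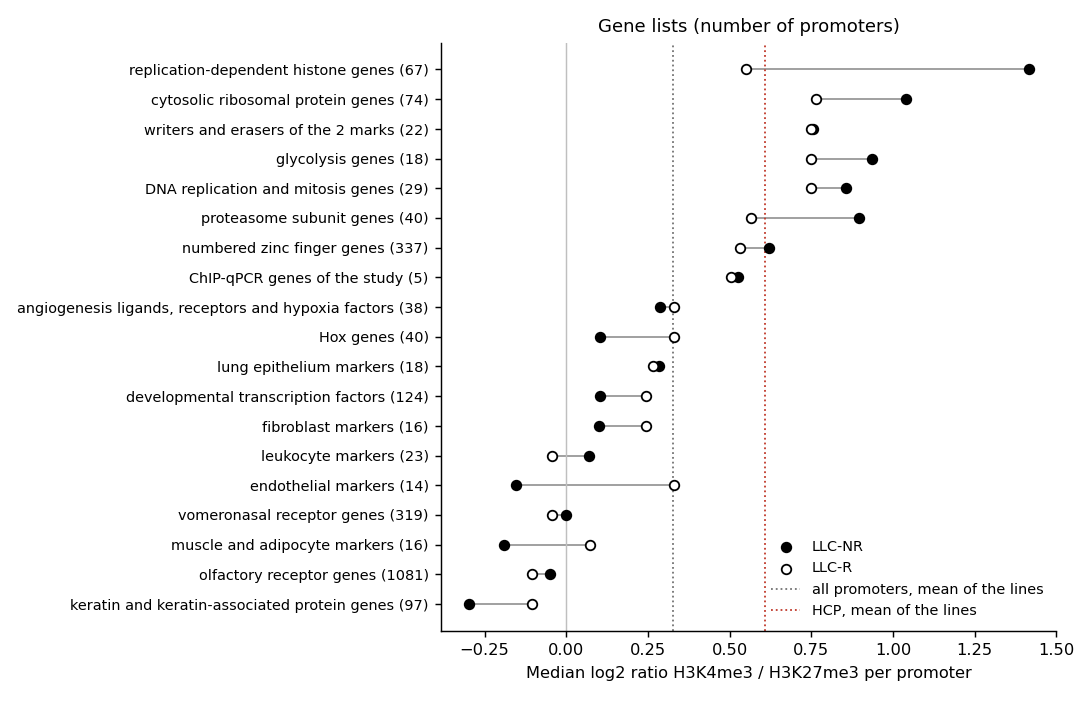
Median log2 ratio of H3K4me3 over H3K27me3 (x axis) for each of 19 gene lists, with the number of promoters in brackets; filled circles are LLC-NR and open circles LLC-R, and dotted lines give the medians of the mean of the lines for all promoters (0.33) and HCPs (0.61). Ribosomal protein genes lie at 1.04 and 0.76, Hox genes at 0.10 and 0.33 and keratin genes at -0.30 and -0.10.

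The marks were not exclusive of each other along promoters. Over the 21418 promoters the numbers of H3K4me3 and H3K27me3 peaks had a Spearman coefficient of 0.109 and 0.155 in LLC-NR and LLC-R, and within HCPs of -0.062 and 0.049. Promoters with at least 6 peaks of each mark numbered 3434 and 4929 in LLC-NR and LLC-R, while 720 and 643 had no peak of either.

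Whether both marks sat on the same nucleosomes was measured by midpoints within 73 bp of each other, which is less than the width of a peak on either side. In LLC-NR, 57.6% of the H3K4me3 peaks had an H3K27me3 midpoint that close, against 46.3% of points displaced by 1 kb, a ratio of 1.24 (SD over chromosomes 0.0079). In LLC-R the shares were 68.3% and 57.2%, a ratio of 1.19 (SD 0.0061). Within 36 bp the ratio was 1.65 and 1.54, and within 20 bp 2.17 and 1.99, so the excess lay at short distances. The share was higher in LLC-R, whose H3K27me3 library held more peaks, and the ratio was not.

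The same excess was found between libraries that do not pair the marks. H3K4me3 peaks of LLC-NR and LLC-R had a ratio of 1.24 with each other, and H3K27me3 peaks 1.22. H3K4me3 against H3K27me3 of the other line gave 1.21 and 1.23, H3K4me3 against H3K9ac 1.21 in both lines, and H3K27me3 against H3K36me3 1.22 and 1.19. The ratio of H3K4me3 with H3K27me3 in the same line was the highest of all these pairs in LLC-NR, at 1.2447 against 1.2420 for the next, and near the lowest in LLC-R, at 1.1945 against 1.1940. In tissue, a position can carry each mark in different cells or on different alleles, and these libraries cannot tell that apart from both marks on 1 nucleosome.

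The distances between midpoints had the spacing of a nucleosome array. Pairs of H3K4me3 and H3K27me3 midpoints at 0 to 10 bp were 2.97 times as frequent in LLC-NR and 2.65 times in LLC-R as at 500 to 1000 bp. The frequency was lowest at 120 bp, with 0.753 and 0.761, and had its next maximum at 160 bp in LLC-NR and 170 bp in LLC-R, with 1.15 in both. H3K27me3 of LLC-NR against LLC-R gave 3.19 at 0 to 10 bp and H3K4me3 gave 2.65.

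**Figure D5:**
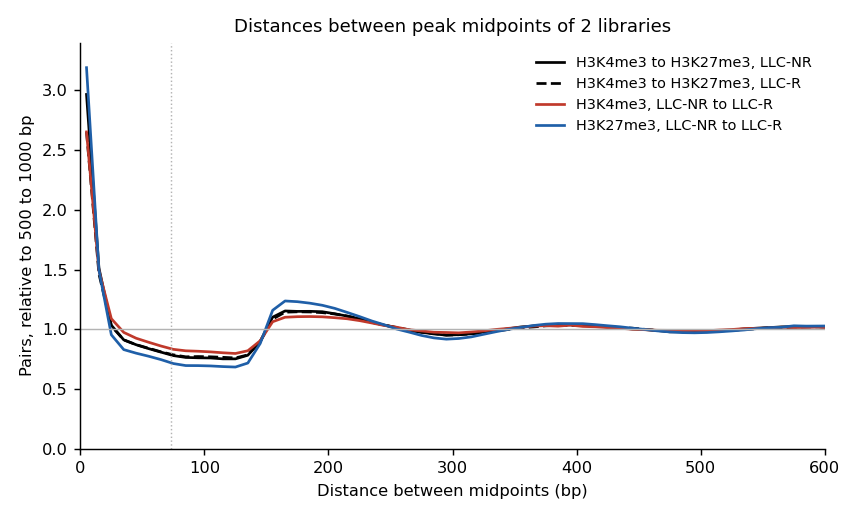
Frequency of pairs of peak midpoints (relative to the mean at 500 to 1000 bp, y axis) against their distance in bp, for H3K4me3 to H3K27me3 in LLC-NR (black, solid) and LLC-R (black, dashed), and for LLC-NR to LLC-R within H3K4me3 (red) and H3K27me3 (blue); the dotted line stands at 73 bp. All curves are highest at 0 to 10 bp, between 2.65 and 3.19, and lowest near 120 bp.

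Within promoters the share of H3K4me3 peaks on an H3K27me3 position was set against the bases that H3K27me3 peaks cover there. In HCPs it was 56.5% and 66.5% in LLC-NR and LLC-R, 1.23 and 1.21 times the covered share. In LCPs it was 59.6% and 68.3%, or 1.40 and 1.34 times, and in background windows 1.38 and 1.30 times. Among the gene lists, the share was 75.8% and 70.7% in Hox genes and 71.0% and 77.1% in developmental transcription factors, where H3K27me3 covered 62.9% and 63.5% and 60.1% and 65.4% of the bases. It was 44.3% and 57.4% in ribosomal protein genes, with 32.0% and 44.0% of bases covered. Divided by the covered share, the values of Hox genes and developmental transcription factors lay below HCPs in both lines, and those of ribosomal protein genes above them. The upper limit of this ratio falls as H3K27me3 covers more bases. The order therefore cannot tell which list shared more positions than its coverage gives.

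H3K4me3 peaks with an H3K27me3 midpoint within 73 bp are called shared positions here, whether or not 1 nucleosome carried both marks. On average a promoter held 2.86 (LLC-NR) and 3.14 (LLC-R) of them, and 14 promoters held at least 7 in both lines. How many of them the bases covered by H3K27me3 peaks would give alone was not tested. Of those named, Ggcx, the carboxylase that uses reduced vitamin K, held 7 and 8 shared positions. D18Ertd653e, Dennd3, an exchange factor for Rab proteins, and Dll4, a Notch ligand of sprouting vessels, held 7 and 7 each. Fam19a3, a secreted protein of brain, and Mboat2, an acyltransferase of phospholipids, also held 7 and 7 each. All 6 are HCPs with 7 or 8 peaks in each of the 4 libraries. Their log2 ratios lay between 0.13 and 0.46 in LLC-NR and between 0.41 and 0.73 in LLC-R.

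On a scale larger than single promoters, the balance of the marks followed gene density. The part that promoter peaks had in the values of the tiles was not tested. In 23179 tiles of 100 kb, the median log2 ratio was -0.052 and -0.054 in LLC-NR and LLC-R where a tile held no TSS, 0.18 and 0.16 with 3 to 5 TSSs, and 0.36 and 0.29 with 6 or more. The tile ratios of the lines had a Spearman coefficient of 0.705. The relation with G+C content differed in sign between the lines, with coefficients of -0.194 and 0.156 in LLC-NR and LLC-R. The lowest tile in the weaker line held the kallikrein genes Klk1b24, Klk1b3, Klk1b4, Klk1b5 and Klk1 (chr7:51400001-51500000), with 112 and 105 H3K4me3 peaks against 241 and 283 of H3K27me3. An olfactory receptor cluster from Olfr1385 to Olfr1380 (chr11:49300001-49400000) had 132 and 112 against 252 and 277. The highest tiles held Wdr18, Cnn2 and Abca7 (chr10:79400001-79500000), with 328 and 350 against 186 and 336, and Daxx, Tapbp and Rps18 (chr17:34000001-34100000), with 317 and 292 against 205 and 287.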

How the data were processed

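ChIP-seq of H3K4me3 and H3K27me3 was analysed in LLC-NR and LLC-R isografts (1 library per line and mark). The authors aligned reads to mm9 with Bowtie 0.12.7 (at most 2 mismatches), kept uniquely mapped reads and called peaks per library with GeneTrack, whose settings are not given in the sources used here. The deposited files list the start and end of 147-bp peaks in bp, with no read count, height or score, so sequencing depth is not in them and the number of peaks stands for it. No input library was analysed here.

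Gene models were GENCODE vM1 and the sequence NCBIM37, the assembly of mm9. The TSS shared by most transcripts was used. HCPs contained 500 bp that reached 55% G+C together with an observed over expected CpG ratio of 0.6, LCPs contained none reaching a ratio of 0.4, and ICPs were the rest. Background windows of 1.5 kb lay at least 5 kb from any TSS. Gene symbols shared by several genes numbered 137 and were kept.

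Marks were compared by limma (lmFit, eBayes with trend) on log2(peaks per 1000000 + 0.2), with p-values adjusted over all 20562 promoters with at least 4 peaks. The line gives the pairing of libraries, and the deviations of the paired libraries from their mark means had r = -0.010 over these promoters. In data simulated for this comparison over 20562 promoters (log2 difference 1.2), the test called 0 of 200 and 0 of 5000 changed promoters, and with the line as a block 15 of 200 and 2067 of 5000. An exact permutation test was used for shares. The members and lists were chosen with earlier results of these data known. Named genes were, in each direction, the 10 promoters past 2-fold in both lines with at least 8 peaks. These were ranked by the weaker line (at most 2 of a numbered family, no unnamed gene models). Also named were the 2 highest and 2 lowest of each of 19 lists and the 5 ChIP-qPCR genes. The 6 promoters with most shared positions were added.

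Alternatives covered the scaling, pseudocount, filter, promoter, TSS, overlap, block, variance trend, distance and each library. R 4.3.3 with limma 3.58.1 and Python 3.11.15 with SciPy 1.17.1, pandas 2.3.3, NumPy 2.4.6 and Matplotlib 3.10.9 were used.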

Additional observations from a re-analysis of the deposited data

Results flagged for a closer look

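The log2 ratios below had opposite signs in the 2 lines, and several lay near 0. The difference between the lines was not tested, since each line has 1 library of a mark. A sign around 0 depends on the scaling, and the medians of all promoters were 0.29 and 0.33 in LLC-NR and LLC-R. Leukocyte markers and muscle and adipocyte markers lay below these medians in both lines, and endothelial markers lay at that of LLC-R. The median log2 ratio of H3K4me3 over H3K27me3 was 0.068 and -0.045 in LLC-NR and LLC-R for leukocyte markers, -0.15 and 0.33 for endothelial markers, and -0.19 and 0.072 for muscle and adipocyte markers. Among the named genes with a 2-fold difference in at least 1 line, the log2 ratio was 1.41 and -0.10 in LLC-NR and LLC-R for Krt18, 1.20 and -0.10 for Mylpf, -1.10 and 0.072 for Hoxd4, and -2.21 and 0.27 for Krtap13.

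By the same 2-fold limit, 9 promoters leaned to H3K4me3 in LLC-NR and to H3K27me3 in LLC-R. They were Clasp2, Krtap6-3, Olfr506, Vmn1r83, Naip5, 1700123L14Rik, Ifi204, Olfr596 and Gm2381, of which 7 are LCPs and none an HCP. Clasp2, which encodes a protein of microtubule ends, held 5 (LLC-NR) and 1 (LLC-R) H3K4me3 peaks and 2 and 5 H3K27me3 peaks. Ifi204, an interferon-induced gene, held 3 and 0 against 1 and 4. None leaned to H3K27me3 in LLC-NR and to H3K4me3 in LLC-R.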

How the results depend on the processing

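The ratio of promoter shares (1.35 for the means) and the ratio of close midpoints (1.22 for the mean of the lines) kept their direction under every alternative run on them, from 1.34 to 1.39 for promoter shares and from 1.19 to 1.24 without 1 line or with another comparison point or library. Only the distance moved the latter, to 1.60 within 36 bp and 2.08 within 20 bp. Counts depended on the settings, and the cause was not tested. Promoters called by limma toward H3K4me3 (1853) and H3K27me3 (3) became 0 and 0 when centred on the median promoter, 2908 and 8 when scaled on background windows, 0 and 0 with the G+C trend removed, 0 and 0 with a pseudocount of 0.1, 3506 and 16 with 0.5, 8 and 0 without the filter, 0 and 0 with promoters of 0.5 kb to each side, 4917 and 46 with an overlap of 1 bp, 7036 and 82 with the line as a replicate block, and 0 and 0 without the variance trend. Where limma called 0 there were 3477 and 1460 (centred), 6903 and 250 (G+C), 7937 and 370 (pseudocount 0.1), 7216 and 359 (0.5 kb) and 7368 and 562 (no trend) at an unadjusted p below 0.05. Without 1 library the calls ranged from 0 to 2589 and from 0 to 21. Without either H3K4me3 library limma called 0 in both directions, with 3813 and 777 and with 5002 and 745 at an unadjusted p below 0.05, and the lone library was assumed to vary like the others. Of the 1853 calls, 1853 were shared with the blocked fit, which uses the same 4 libraries. Other settings did not keep the same promoters. Of the 8 calls without the filter, 0 were among the 1853. Without either H3K27me3 library, only a part of the 1853 was called again, so the similar counts there are not the same promoters. The block lost no call of a named gene and gave 29 more.

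Promoters rich in H3K4me3 (452) and H3K27me3 (43) became 68 and 151 when centred, 1158 and 105 with a pseudocount of 0.1, 60 and 1 with 0.5, and 3507 and 302 at a 1.5-fold limit. H3K27me3-rich promoters were 21 when scaled on background windows, 18 with the G+C trend removed and 74 with promoters of 0.5 kb to each side. By 1 line alone the counts ranged from 1034 to 2939 and from 442 to 478. The medians of 6 of the 19 lists changed sign when centred and of 4 with the G+C trend removed. Set against the median of all promoters, 0 lists changed side when centred and 2 with the G+C trend removed. Of 99 named genes tested, 17 lost their call in each setting with 0 calls, and none changed direction past the threshold. The number of peaks cannot exceed what fits in a promoter, and this limits large differences more than small ones. Where both marks come near this limit, the scaled ratio leans toward H3K4me3. Its share in the medians and calls was not tested.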
